A study of Homo sapiens with 15 samples.

Results

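The genes described here are the long noncoding snoRNA host genes of A549 cells: GAS5, EPB41L4A-AS1 and every gene whose symbol is SNHG followed by a number. They were picked by symbol alone and came to 27 of the 43388 gene rows in the count files. A549 is a human lung adenocarcinoma line, wild type in every library, and each library held the RNA of cells kept for 72 h in 95% O2 (hyperoxia) or 21% O2 (normoxia). Before the exposure the cells had 24 h of 1e-05 mM all-trans retinoic acid (ATRA), the same time in its ethanol vehicle, or no agent that the labels name. The 14 libraries with a group comprised 3 of hyperoxia with ATRA, 3 of normoxia with ATRA and 2 each of hyperoxia vehicle, normoxia vehicle, hyperoxia with no agent and normoxia with no agent. One further library had conflicting labels and entered no comparison. Where nothing says that the libraries of a group came from separate cultures, the p-values measure only the spread between these libraries, which may be technical.

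Small nucleolar RNAs (snoRNAs) guide chemical modification or cleavage of ribosomal RNA and other RNAs. In human cells most of them are cut out of the introns of longer transcripts, and the genes studied here are noncoding hosts whose spliced exons have no large reading frame. Box C/D snoRNAs guide 2′-O-methylation, box H/ACA snoRNAs guide pseudouridylation, and Cajal body RNAs (scaRNAs) do the same on spliceosomal RNAs. Several spliced host transcripts begin with a terminal oligopyrimidine (TOP) tract like that of ribosomal protein mRNAs, and several, GAS5 above all, are degraded by nonsense-mediated decay while they are being translated. GAS5 was named for its accumulation in growth-arrested cells.

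The libraries held between 2642377 and 5605072 counts on genes. Levels are given in CPM, counts per 1000000 counts on genes, scaled between libraries by the trimmed mean of M-values (TMM). Keratins KRT7, KRT8 and KRT18 and the A549-typical AKR1B10 and NQO1 were high in all 14 libraries, with lowest values of 502 to 2061 CPM, while the epithelial marker EPCAM lay between 0 and 4.79 CPM. The leukocyte marker PTPRC was at 0 in 13 of the 14 libraries, and among the fibroblast markers COL1A1 reached 12.3 CPM while COL1A2 was at 0 in 13. Replicate 1 of hyperoxia with no agent stood apart: 12657 genes had a count in it against 16465 to 20108 in the others, and 610 genes were at 0 there although all the other libraries held at least 10 counts of them. SNHG3 was 1 of those genes, so results that rest on this library are given with and without it.

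Of the 27 host genes, 24 passed the filter on low counts in the fit of 10 libraries (ATRA and vehicle, 14957 genes) and in the fit of all 14 (15339 genes). SNHG18 had 2 counts in 1 library, SNHG28 had 7 counts spread over 4 normoxia libraries, and SNHG27 had no count in any, which allows up to 0.535 to 1.14 CPM depending on the library (3 counts, counting error only). The levels of the rest spanned a wide range. SNHG29 was the most abundant, with a mean of 518.6 CPM over the 14 libraries, followed by SNHG14 at 146.5, SNHG16 at 91.4, GAS5 at 75.5, SNHG5 at 56.6 and SNHG1 at 44.4 CPM. Divided by the length of the canonical transcript, SNHG29 again led with 1171 CPM per kb, followed by SNHG16 at 183.6, GAS5 at 98.3, SNHG25 at 97.5 and SNHG5 at 43.0, while SNHG14, whose canonical transcript has 57 exons, dropped to rank 10 with 20.9 CPM per kb. EPB41L4A-AS1, host of SNORA13, was at 7.23 CPM. Together the 27 genes took 1174 to 1575 CPM of unscaled gene counts in the 7 hyperoxia libraries and 912 to 1180 in the 7 normoxia libraries, so these ranges overlapped slightly, and SNHG29 made up the largest share.

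The question put to the oxygen comparison was how host gene transcripts differ between 95% and 21% O2. GAS5, SNHG29, SNHG14, SNHG7 and SNHG11 were higher in hyperoxia, and SNHG25, SNHG5 and SNHG19 were lower, when the 3 pre-treatment states were averaged. These were 5 and 3 of the 24 genes tested. Over all genes tested 31.1% were called, 15.5% higher and 15.5% lower. The shares of the hosts, 20.8% higher and 12.5% lower, were near these for a list of only 24 genes. No tilt of the list is read from them. The median log2 fold change of the 24 was 0.096, against -0.034 for all genes. Calls are edgeR quasi-likelihood tests with Benjamini-Hochberg adjusted p under 0.05, and all further adjusted p-values are from the same test. Without replicate 1 of hyperoxia with no agent, 4 were called higher and 4 lower: SNHG11 lost its call and SNHG3 gained one.

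GAS5 (chr1:173863901-173869045, minus strand, with 11 snoRNA genes in its span) rose most of those called. In normoxia it stood at 38.0 and 46.8 CPM with no agent, at 44.1 and 31.9 CPM with vehicle and at 36.3, 46.5 and 37.7 CPM with ATRA. In hyperoxia it stood at 123.4 and 112.4 CPM with no agent, at 141.8 and 158.0 CPM with vehicle and at 57.7, 77.3 and 104.4 CPM with ATRA. Every hyperoxia library was thus above every normoxia library, a pattern shown by 6.34% of all genes tested, and in hyperoxia the 3 ATRA libraries were the lowest. The log2 fold change was 2.002 ± 0.23 (SE, adjusted p = 2.515e-06) with vehicle, 0.99 ± 0.19 (adjusted p = 0.0006877) with ATRA and 1.48 ± 0.25 (adjusted p = 0.0008746) with no agent, and the mean over the 3 states was 1.49 ± 0.14 (adjusted p = 5.917e-07), a 2.80-fold rise. GAS5-AS1, a noncoding gene that overlaps GAS5 and held 13.8% as many counts, rose by 1.69 ± 0.30 in the mean contrast (adjusted p = 0.0004779), whereas ZBTB37, which overlaps it too, was at -0.024 ± 0.24. The strand setting of the counting is not given in the sources used here, so reads of overlapping genes may be shared between them.

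SNHG29 (chr17:16438987-16470648, plus strand), host of SNORD49A, SNORD49B and SNORD65, was the most abundant host. Its normoxia values were 414.4 and 423.1 CPM with no agent, 425.8 and 421.9 with vehicle, and 361.0, 433.8 and 449.2 with ATRA. Its hyperoxia values were 710.9 and 658.6 CPM with no agent, 690.5 and 666.6 with vehicle, and 545.2, 513.1 and 546.3 with ATRA. The oxygen groups did not overlap, and in hyperoxia the ATRA libraries again lay under the others. The mean log2 fold change was 0.59 ± 0.067 (adjusted p = 5.615e-06), with 0.68 ± 0.13 in vehicle, 0.37 ± 0.11 in ATRA and 0.71 ± 0.12 with no agent, each past the threshold.

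SNHG14 (chr15:24823608-25419462, plus strand) is the long imprinted transcript of the Prader-Willi and Angelman region, with 83 snoRNA genes in its span. Normoxia libraries held 118.0 and 112.3 CPM with no agent, 123.4 and 130.7 with vehicle and 117.9, 113.9 and 121.8 with ATRA. Hyperoxia libraries held 143.8 and 185.7 CPM with no agent, 148.7 and 166.7 with vehicle and 190.0, 203.2 and 174.9 with ATRA. These did not overlap, and here the ATRA libraries of hyperoxia were among the highest. Over the 3 states SNHG14 rose by 0.50 ± 0.081 on the log2 scale (adjusted p = 0.0001747). It was 0.68 ± 0.12 with ATRA (adjusted p = 0.0001672) and 0.51 ± 0.15 with no agent (adjusted p = 0.0288), and 0.31 ± 0.14 with vehicle, which missed the threshold (adjusted p = 0.142). SNRPN, which lies in the same span and held 64.3% as many counts, was higher by 0.64 ± 0.095 in the mean contrast (adjusted p = 8.447e-05), and UBE3A, transcribed against SNHG14, was at 0.26 ± 0.12 (adjusted p = 0.1087).

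SNHG7, host of SNORA17A and SNORA17B, stood in normoxia at 23.2 and 28.8 CPM with no agent, 33.4 and 26.3 with vehicle and 25.6, 21.9 and 36.2 with ATRA. In hyperoxia it stood at 25.6 and 65.5 CPM with no agent, 60.4 and 82.8 with vehicle and 33.5, 61.2 and 67.0 with ATRA. Of the 7 hyperoxia libraries, 5 were above all of normoxia, and replicate 1 of no agent and replicate 1 of ATRA were within its range. Over the 3 states SNHG7 differed by a log2 fold change of 1.00 ± 0.22 (adjusted p = 0.002481), and 1.18 ± 0.17 without replicate 1 of hyperoxia with no agent. With vehicle it was 1.28 ± 0.29 (adjusted p = 0.003472) and with ATRA 0.93 ± 0.24 (adjusted p = 0.008103). With no agent it was 0.79 ± 0.41 (adjusted p = 0.2073), not called. Without that replicate, which left a single hyperoxia library with no agent, it was 1.33 ± 0.34. DIPK1B, on the opposite strand over 46.4% of the canonical SNHG7 transcript and with 47.9% as many counts, was at 0.31 ± 0.25 (adjusted p = 0.3757).

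SNHG11, host of SNORA60 and SNORA71E, was a low transcript. In normoxia it was at 3.71 and 2.88 CPM with no agent, 3.48 and 4.79 with vehicle and 6.52, 4.68 and 6.25 with ATRA. In hyperoxia it was at 11.8 and 6.84 CPM with no agent, 8.48 and 9.004 with vehicle and 8.83, 5.36 and 6.14 with ATRA. The oxygen groups overlapped through their ATRA libraries alone. The mean log2 fold change of 0.93 ± 0.34 was just past the threshold (adjusted p = 0.04838). It was the least settled of the calls, since 16 of 19 alternative settings put its adjusted p over 0.05.

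**Figure D1:**
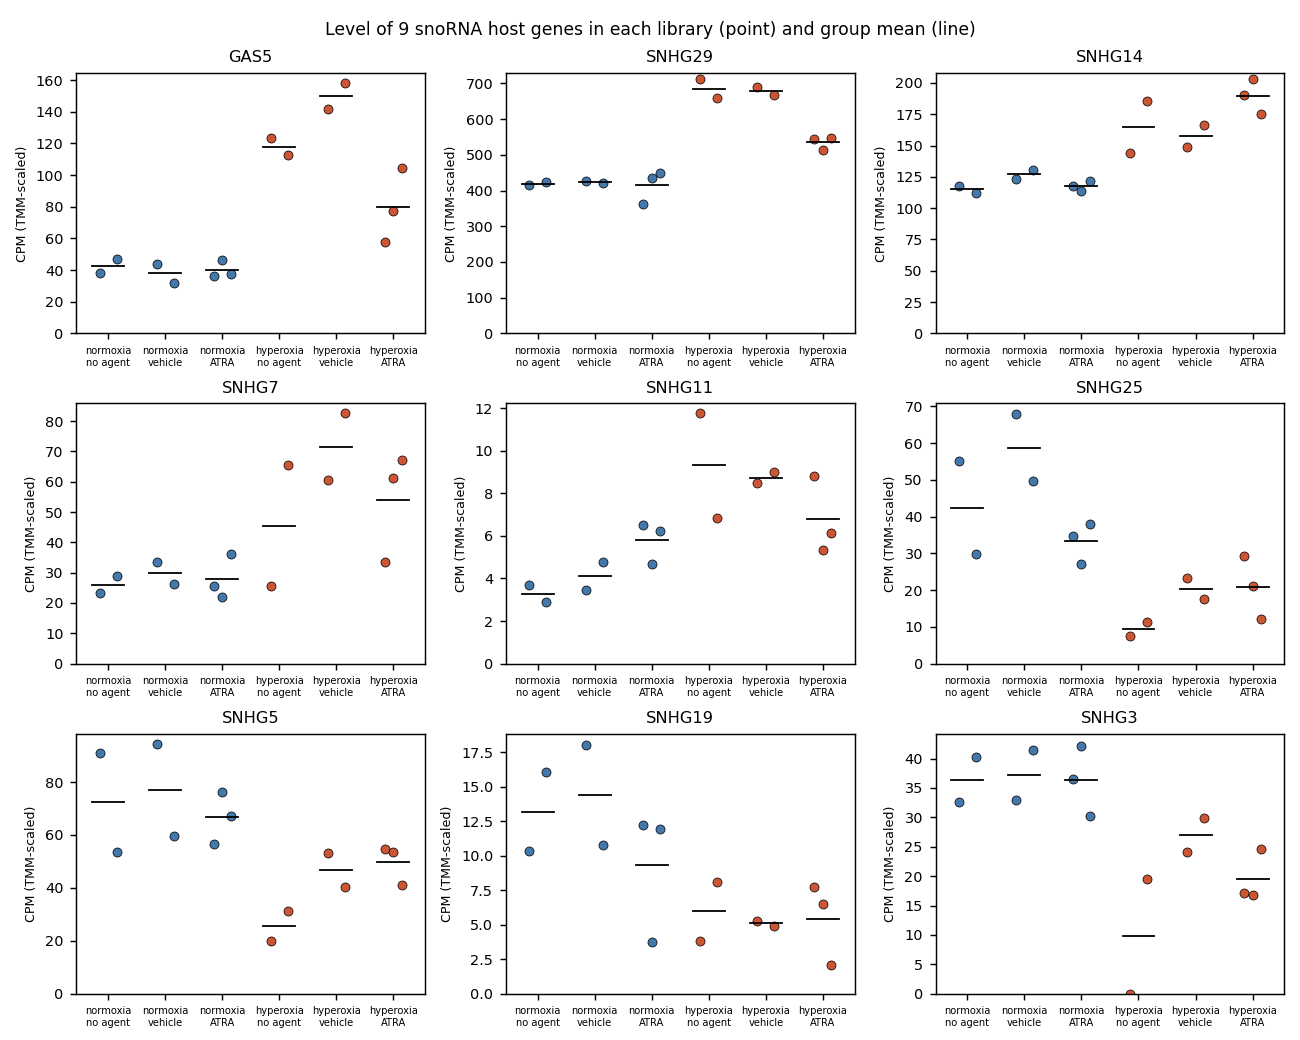
Levels of 9 host genes in TMM-scaled CPM (linear axes from 0) in the 14 libraries, each point 1 library and each line the mean of its group, normoxia in blue and hyperoxia in red. GAS5, SNHG29 and SNHG14 are higher in all hyperoxia libraries than in any normoxia library, SNHG3 is lower in all, and SNHG3 is at 0 in replicate 1 of hyperoxia with no agent.

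Among the genes that fell, SNHG25 (chr17:64145970-64146309, plus strand), a short host that carries SNORD104 in its intron, changed most of those called. In normoxia it was at 55.0 and 29.7 CPM with no agent, 67.8 and 49.7 with vehicle and 34.7, 27.2 and 38.0 with ATRA. In hyperoxia it was at 7.59 and 11.4 CPM with no agent, 23.3 and 17.5 with vehicle and 29.4, 21.0 and 12.0 with ATRA. The ranges overlapped by a single pair of ATRA libraries, 29.4 against 27.2 CPM. The log2 fold change was -2.18 ± 0.43 with no agent (adjusted p = 0.002743), -1.53 ± 0.32 with vehicle (adjusted p = 0.001638) and -0.67 ± 0.27 with ATRA, which did not pass (adjusted p = 0.07676). The mean was -1.46 ± 0.22 (adjusted p = 0.0001158).

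SNHG5, host of SNORD50A and SNORD50B, was at 91.1 and 53.5 CPM with no agent, 94.5 and 59.6 with vehicle and 56.6, 76.2 and 67.1 with ATRA in normoxia. In hyperoxia the values were 19.97 and 31.3 CPM with no agent, 53.3 and 40.3 with vehicle and 54.8, 53.6 and 41.1 with ATRA. The lowest levels were those of hyperoxia with no agent. The mean log2 fold change was -0.88 ± 0.17 (adjusted p = 0.0007122), with -1.52 ± 0.31 for no agent (adjusted p = 0.003944), -0.71 ± 0.23 for vehicle (adjusted p = 0.03631) and -0.42 ± 0.19 for ATRA (adjusted p = 0.1238).

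SNHG19, host of SNORD60, was in normoxia at 10.3 and 16.1 CPM with no agent, 18.1 and 10.8 with vehicle and 12.3, 3.75 and 11.97 with ATRA. The hyperoxia libraries were at 3.80 and 8.14 CPM with no agent, 5.30 and 4.94 with vehicle and 7.75, 6.51 and 2.13 with ATRA. Replicate 2 of normoxia with ATRA, at 3.75 CPM, was the only normoxia library inside the hyperoxia range. Averaged over the states the log2 fold change was -1.14 ± 0.39 (adjusted p = 0.03526), and 8 of 19 alternative settings put its adjusted p over 0.05.

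The remaining abundant hosts showed no call in any comparison. SNHG16, host of SNORD1A, SNORD1B and SNORD1C, was at 83.9 and 87.3 CPM with no agent, 85.9 and 86.7 with vehicle and 67.0, 89.6 and 83.0 with ATRA in normoxia, and at 110.1 and 91.5, at 126.4 and 100.8, and at 77.0, 97.2 and 93.7 CPM in the same order in hyperoxia. Its mean log2 fold change was 0.26 ± 0.10 (adjusted p = 0.05835). SNHG1, which carries 8 box C/D snoRNAs, was at 46.4 and 41.7 CPM with no agent, 46.9 and 44.7 with vehicle and 40.7, 60.9 and 38.3 with ATRA in normoxia, and at 47.5 and 45.3, at 41.9 and 60.9, and at 33.5, 34.4 and 38.5 CPM in hyperoxia. Its ranges nearly coincided and its mean log2 fold change was -0.048 ± 0.14, with a 95% interval of -0.34 to 0.25.

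The 13 other hosts that passed the filter had mean levels from 42.9 CPM (SNHG6) down to 2.29 CPM (SNHG26), overlapped between oxygen levels and were called in no comparison. SNHG6, host of SNORD87, lay between 36.0 and 50.6 CPM in normoxia and 27.2 and 64.3 CPM in hyperoxia, and SNHG17, which carries 4 members of the SNORA71 family, between 22.2 and 34.2 and between 17.6 and 42.2 CPM. MCMDC2 overlaps 81.7% of the canonical SNHG6 transcript on the opposite strand and held 82.0% as many counts. SNHG4, host of SNORA74A and SNORA74D, was at 8.69 to 16.2 CPM in normoxia and at 0.20 to 10.1 CPM in hyperoxia, the lowest being the 1 count in replicate 1 of no agent, and with ATRA its log2 fold change was -1.08 ± 0.39 (adjusted p = 0.05186). SNHG10, host of SCARNA13, and SNHG12, with 4 snoRNAs, were at 7.27 to 16.9 and 4.49 to 7.04 CPM in normoxia against 12.4 to 18.8 and 3.196 to 13.2 CPM in hyperoxia. SNHG20 and SNHG22, which carry SCARNA16 and SCARNA17, ranged from 7.02 to 14.95 and from 2.16 to 14.6 CPM over all 14 libraries. SNHG9, SNHG21 and SNHG26 stayed under 10 CPM in every library. EPB41L4A-AS1 ranged from 5.997 to 12.2 CPM in normoxia and from 2.70 to 10.4 CPM in hyperoxia, and EPB41L4A, on the opposite strand over 62.7% of its canonical transcript, held 513.5% as many counts.

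By pre-treatment, 3 host genes were called higher and 2 lower with vehicle, 4 higher and 1 lower with ATRA, and 3 higher and 2 lower with no agent. The shares of all genes called were 8.68% higher and 8.81% lower with vehicle, 11.4% and 11.3% with ATRA, and 7.57% and 7.58% with no agent, which came to 17.5%, 22.7% and 15.2% in either direction. GAS5 and SNHG29 were the members called in all 3 states. Leaving out replicate 1 of hyperoxia with no agent left 1 hyperoxia library in that state. The no-agent log2 fold changes were then 1.41 ± 0.27 for GAS5, 0.65 ± 0.16 for SNHG29 and 0.68 ± 0.17 for SNHG14. SNHG25 was at -1.90 ± 0.48 and SNHG5 at -1.22 ± 0.34. These 5 kept their direction, but the errors rest on the spread of other groups, so the calls could not be checked this way. When only the no-agent libraries were fitted no host gene was called, and 58 genes were called in all. Whether the oxygen effect on any host gene differed between ATRA and vehicle was tested directly, and no gene of the 24 passed, as set out with the ATRA comparison.

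**Figure D2:**
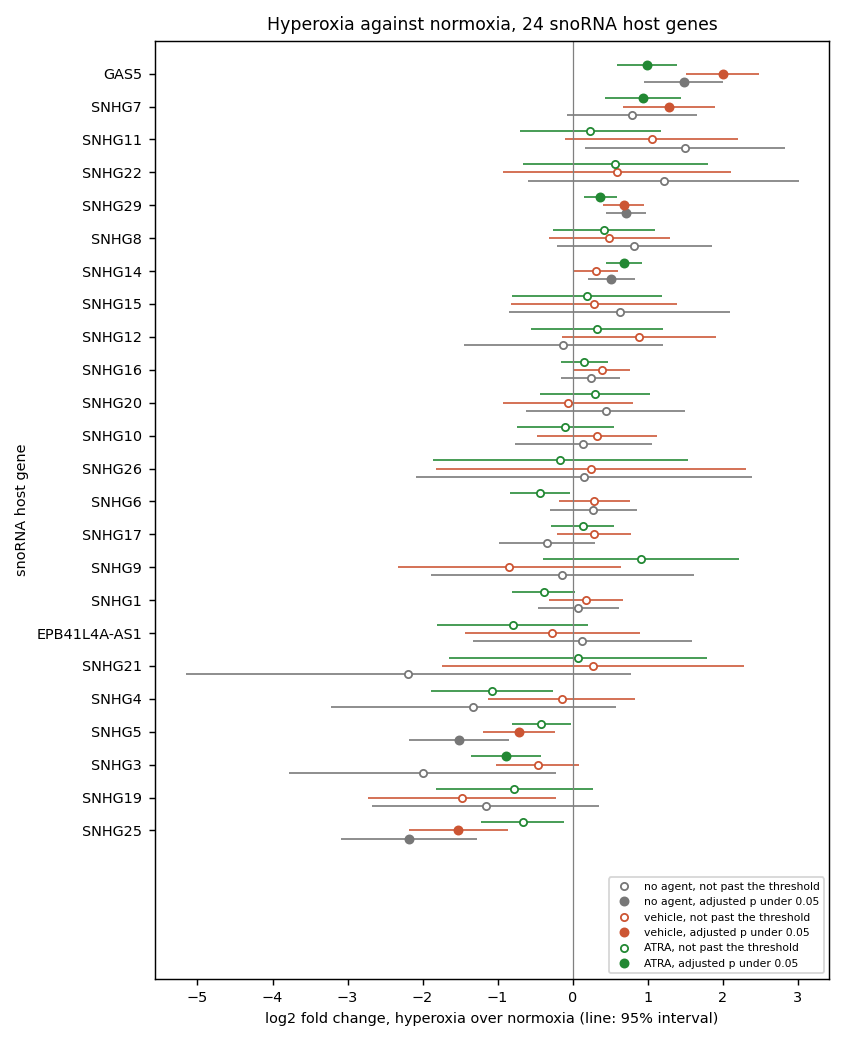
Log2 fold change of hyperoxia over normoxia for the 24 host genes tested, in the no-agent (grey), vehicle (red) and ATRA (green) libraries, with 95% intervals and filled points at adjusted p under 0.05. GAS5 is at 1.48, 2.002 and 0.99 in the 3 states, SNHG25 at -2.18, -1.53 and -0.67, and the intervals of most low hosts span 0.

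SNHG3 (chr1:28505943-28510892, plus strand) was lower in all hyperoxia libraries than in any normoxia library, and the snoRNA genes in its introns were higher. The fall of SNHG3 did not pass the threshold in the mean contrast over all 14 libraries. SNORA73A and SNORA73B are H/ACA-type snoRNAs known for their part in processing small-subunit ribosomal RNA. Their sequences are shown because both have rows of their own in the count files, read from hg38 by the RefSeq coordinates, with the closing ACA box in capitals.
SNORA73A, chr1:28507365-28507571, plus strand: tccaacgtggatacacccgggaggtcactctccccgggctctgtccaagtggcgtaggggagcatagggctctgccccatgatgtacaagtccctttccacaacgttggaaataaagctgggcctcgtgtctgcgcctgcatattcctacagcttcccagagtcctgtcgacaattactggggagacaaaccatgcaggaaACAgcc
SNORA73B, chr1:28508558-28508762, plus strand: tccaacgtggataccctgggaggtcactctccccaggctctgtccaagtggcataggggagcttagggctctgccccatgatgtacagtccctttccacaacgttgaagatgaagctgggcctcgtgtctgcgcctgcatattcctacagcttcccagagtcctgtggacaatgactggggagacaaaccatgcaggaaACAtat
Each ends 3 bases after its ACA box, and they are 93.2% identical over an alignment of 207 positions, so reads that fit both could be split between them or dropped.

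SNHG3 was at 32.6 and 40.3 CPM with no agent, 33.0 and 41.5 with vehicle and 36.5, 42.1 and 30.2 with ATRA in normoxia, and at 0 and 19.5 CPM, 24.1 and 29.8 CPM, and 17.1, 16.8 and 24.6 CPM in hyperoxia. All hyperoxia libraries were lower than all normoxia libraries, with or without the library at 0. For all genes tested that share was 7.31% over 7 hyperoxia libraries and 8.7% over 6. With ATRA the log2 fold change was -0.89 ± 0.23 (adjusted p = 0.006519). It did not pass with vehicle, at -0.47 ± 0.27 (adjusted p = 0.265), or with no agent, at -1.998 ± 0.84 (adjusted p = 0.1202). Without the library at 0, which left a single hyperoxia library with no agent, the no-agent change was -0.90 ± 0.35. The mean contrast gave -1.12 ± 0.43 (adjusted p = 0.06297) over all 14 libraries and -0.75 ± 0.16 (adjusted p = 0.0008248) without replicate 1 of hyperoxia with no agent. RCC1, whose exons share 242 bases with SNHG3 on the same strand and which held 280% as many counts, was lower by 0.34 ± 0.11 on the log2 scale (log2 fold change -0.34, adjusted p = 0.02177).

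SNORA73A stood at 9.36 and 70.8 CPM with no agent, 52.8 and 32.8 with vehicle and 37.8, 65.5 and 151.2 with ATRA in normoxia. In hyperoxia it stood at 290.6 and 238.1, at 174.4 and 230.6, and at 189.5, 243.7 and 191.2 CPM in the same order. Hyperoxia lay above normoxia throughout, and normoxia had the wider relative spread. Replicate 1 of normoxia with no agent was the lowest library for both snoRNAs, at 9.36 CPM for SNORA73A and 14.8 CPM for SNORA73B. Replicate 2 of that group was at 70.8 and 124.7 CPM. These low values enter the no-agent and mean changes. The mean log2 fold change was 2.10 ± 0.34 (adjusted p = 0.0001841), and it was called in each pre-treatment state, at 2.75 ± 0.64 with no agent, 2.28 ± 0.38 with vehicle and 1.28 ± 0.29 with ATRA. SNORA73B ran from 14.8 to 168.9 CPM in normoxia and from 238.6 to 381.3 CPM in hyperoxia, with a mean log2 fold change of 1.74 ± 0.33 (adjusted p = 0.000684). Without replicate 1 of hyperoxia with no agent the changes were 2.05 ± 0.29 for SNORA73A and 1.63 ± 0.28 for SNORA73B.

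**Figure D3:**
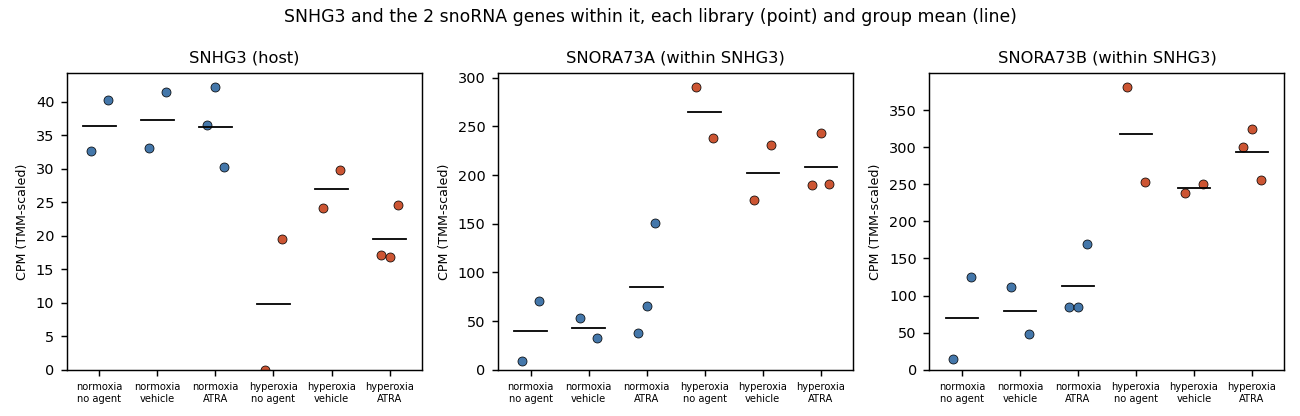
TMM-scaled CPM (linear axes from 0) of SNHG3, SNORA73A and SNORA73B in the 14 libraries by group, each point 1 library and each line a group mean, normoxia in blue and hyperoxia in red. SNHG3 is lower in every hyperoxia library than in any normoxia library, and both snoRNAs are higher in every hyperoxia library, from 174.4 CPM up for SNORA73A and from 238.6 CPM up for SNORA73B.

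Some classes of other short RNAs were also higher, and box C/D rows were mostly not called. Of 36 box H/ACA rows outside the host genes that were tested, 13 were called higher and 1 lower in the mean contrast. Their median log2 fold change was 1.14, and of 9 inside the host genes 5 were higher. Of 29 box C/D rows tested outside the host genes, 1 was higher and 3 were lower, with a median of 0.645. Of 11 Cajal body rows tested there, 6 were higher and 0 lower, with a median of 0.84. Of 7 other short structured RNAs, chosen after the data were seen, 5 were higher. The share of all genes called was 15.5% in each direction. The RNA component of RNase MRP, RMRP, ranged from 375.0 to 6811 CPM in normoxia and from 3984 to 8207 CPM in hyperoxia, with a mean log2 fold change of 1.26 ± 0.37 (adjusted p = 0.01608). RPPH1, the RNase P RNA, was at 1.14 ± 0.38, RN7SK at 0.83 ± 0.27, RN7SL1 at 1.04 ± 0.33 and the telomerase RNA TERC at 1.10 ± 0.28, each past the threshold, while RN7SL2 was at 0.69 ± 0.41 (adjusted p = 0.2293) and VTRNA1-1 did not pass the filter. Their part in the rise of SNORA73A and SNORA73B was not tested.

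The snoRNA rows of the other hosts were mostly sparse. RefSeq places 139 snoRNA or scaRNA genes within 25 of the 27 hosts (SNHG27 and SNHG28 hold none), of which 83 had a count and 24 passed the filter. In the mean contrast 6 were higher (25%) and 1 lower (4.17%), against 15.5% of all genes tested in each direction. Besides the SNORA73 pair the higher ones were SNORA74A in SNHG4 at 1.92 ± 0.34, SNORA103 in GAS5 at 1.89 ± 0.31, SCARNA16 in SNHG20 at 1.63 ± 0.45 and SNORA71A in SNHG17 at 2.39 ± 0.81, and the lower one was SNORD29 in SNHG1 at -2.26 ± 0.79 (adjusted p = 0.03901). SNORA71A and SNORD29 rest on replicate 1 of hyperoxia with no agent: without it neither passed, at 2.12 ± 0.84 (adjusted p = 0.05293) and -1.89 ± 0.77 (adjusted p = 0.05957). SNHG4, SNHG20 and SNHG17 themselves had no call. SEC14L1, which overlaps SNHG20 on the same strand with 883% as many counts, was at 0.62 ± 0.092 (adjusted p = 8.819e-05). MATR3, which overlaps SNHG4 on the same strand with 2333% as many counts, was at -0.475 ± 0.091 (adjusted p = 0.0008073). How these genes relate to the snoRNA rows was not tested. SNORA103 overlaps an exon of the canonical GAS5 transcript, so a read from that stretch may come from either transcript. How such reads were assigned is not given in the sources used here, and the counts of SNORA103 and GAS5 may not be separate measurements. The 12 box C/D rows within hosts that were tested, 5 of them in GAS5, had a median of -0.33, with 1 called lower, and in SNHG29 the row of SNORD49B stayed at -0.022 ± 0.20 while its host rose.

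To set the hosts beside genes known for a TOP start, the 5′ ends of the called members with a RefSeq promoter entry are shown. Each runs from 20 bases before to 50 bases after the RefSeq start (GRCh38.p14), with the longest unbroken run of C and T in capitals. The hosts that were higher in hyperoxia are given before those that were lower.
GAS5, chr1:173868996-173869065, minus strand: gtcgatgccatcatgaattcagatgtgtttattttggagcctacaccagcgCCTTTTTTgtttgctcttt
SNHG29, chr17:16438967-16439036, plus strand: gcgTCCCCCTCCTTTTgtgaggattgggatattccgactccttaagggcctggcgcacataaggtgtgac
SNHG14, chr15:24823588-24823657, plus strand: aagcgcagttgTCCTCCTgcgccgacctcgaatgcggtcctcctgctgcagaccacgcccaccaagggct
SNHG7, chr9:136728135-136728204, minus strand: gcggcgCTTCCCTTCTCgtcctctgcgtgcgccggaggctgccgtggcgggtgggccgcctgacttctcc
SNHG11, chr20:38446634-38446703, plus strand: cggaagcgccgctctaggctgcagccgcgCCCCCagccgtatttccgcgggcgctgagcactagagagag
SNHG5, chr6:85678684-85678753, minus strand: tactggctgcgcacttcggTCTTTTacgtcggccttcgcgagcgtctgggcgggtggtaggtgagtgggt
SNHG19, chr16:2155309-2155378, minus strand: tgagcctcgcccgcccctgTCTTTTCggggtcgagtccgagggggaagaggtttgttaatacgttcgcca
SNHG3, chr1:28505923-28505992, plus strand: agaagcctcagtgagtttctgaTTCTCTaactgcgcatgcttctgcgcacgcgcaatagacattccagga
The run begins at the base just before the annotated start in SNHG5 and SNHG19, and 9, 14 and 17 bases before it in SNHG14, SNHG7 and SNHG29. In SNHG3, SNHG11 and GAS5 it begins at base 3, 10 and 32 of the RefSeq transcript. A run of at least 7 C or T in this window was present in 13 of the 23 members with a RefSeq promoter entry (56.5%), in 5 of the 8 called ones, in 37.6% of all promoter windows and in 91% of those of ribosomal protein genes. It occurred among hosts that rose (GAS5, SNHG29, SNHG14, SNHG7) and those that fell (SNHG19). A TOP tract begins the transcript, whereas the run was sought anywhere in the window, so a run is not by itself a TOP start. The runs of SNHG29, SNHG14 and SNHG7 ended before the annotated start, that of GAS5 lay inside the transcript and that of SNHG19 spanned the start. Whether these hosts have a TOP start was not tested. The letters CACGTG, the palindromic E-box read by MYC and related factors, were found in 1 of the 23 members, SNHG7, within 250 bases before to 50 after the start, and in 7.26% of all promoters.

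The coding genes of the TOP class moved together. Of 79 ribosomal protein genes 63 were lower and 1 higher in the mean contrast, with a median log2 fold change of -0.70. RPL3 was at -1.28 ± 0.067 and RPS7 at -1.52 ± 0.083, and the higher one, RPS29, at 0.53 ± 0.11, reached 1560 CPM in 1 hyperoxia library against 262.2 to 420.9 CPM in normoxia. Of 18 other TOP mRNAs 14 were lower and 0 higher (also 0 higher at unadjusted p under 0.05 and by DESeq2), led by the elongation factor EEF1A1 at -1.997 ± 0.073 and the ribosomal scaffold RACK1 at -0.69 ± 0.066. Set beside these, the host genes had a median near that of all genes and changes of both signs. Of 3 further noncoding hosts, ZFAS1 rose from a mean of 53.7 to 135.2 CPM (log2 fold change 1.35 ± 0.12, adjusted p = 4.517e-07), DANCR fell (-0.89 ± 0.29, adjusted p = 0.02682) and MEG8 was at 0.71 ± 0.80. Among 164 protein-coding snoRNA hosts tested 25 were higher (15.2%) and 55 lower (33.5%), against 15.5% of all genes in each direction. The share called higher was thus that of all genes, and the share called lower was above it. ODC1, the polyamine synthesis enzyme, was at 1.39 ± 0.093 and the condensin subunit NCAPD2 at -2.21 ± 0.18.

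**Figure D4:**
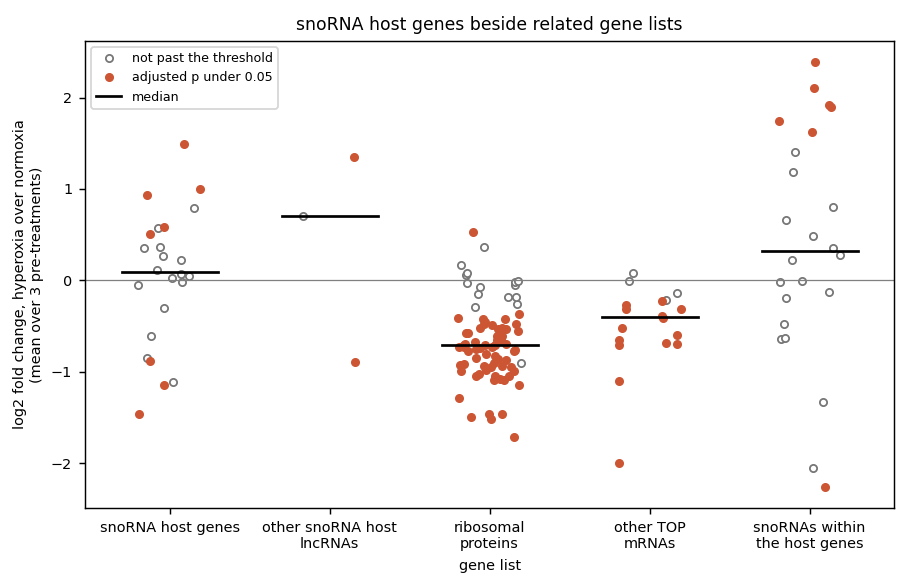
Log2 fold change of hyperoxia over normoxia (mean over the 3 pre-treatment states) for the host genes, 3 further noncoding hosts, 79 ribosomal protein genes, 18 other TOP mRNAs and 24 snoRNA rows within the hosts, each point 1 gene, filled at adjusted p under 0.05, with the median as a line. The ribosomal protein median is -0.70 and that of the host genes 0.096, with points on both sides of 0.

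The proteins that assemble on snoRNAs and those that degrade host transcripts were read as well. Of the 4 box C/D core proteins 3 were lower, with the methyltransferase FBL at -0.99 ± 0.080 and NOP56 at -0.46 ± 0.080, and of the 4 H/ACA core proteins 1 was lower, NHP2 at -0.85 ± 0.20. Neither list held a gene called higher, by edgeR at adjusted or unadjusted p under 0.05 or by DESeq2. Of 12 assembly factors 1 was lower, TCOF1 at -0.64 ± 0.088, and 0 were higher (1 at unadjusted p under 0.05 and 0 by DESeq2). Of 14 factors of nonsense-mediated decay 7 were higher and 1 lower, with SMG9 at 1.48 ± 0.12, SMG5 at 0.88 ± 0.080 and the exon junction helicase EIF4A3 at -0.57 ± 0.13. Over all genes 15.5% were called in each direction.

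The second question was what ATRA did to host gene levels within each oxygen level. In normoxia no host gene of the 24 was called by edgeR, with 0 higher and 3 lower at unadjusted p under 0.05 and 0 calls by DESeq2, where 1.25% of all genes were called, 0.816% higher and 0.435% lower. GAS5 differed by a log2 fold change of 0.097 ± 0.22 with a 95% interval reaching from -0.37 to 0.56, so a change of the size seen with oxygen was outside the interval.

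In hyperoxia GAS5 was lower with ATRA than with vehicle, at 57.7, 77.3 and 104.4 against 141.8 and 158.0 CPM. The log2 fold change was -0.91 ± 0.20 (adjusted p = 0.01343). GAS5 was the single member called of 24, where 2.21% of all genes were called, 1.52% higher and 0.695% lower. The call rests on the small vehicle group: without vehicle replicate 1 or 2 of hyperoxia the adjusted p was 0.08912 or 0.2137, with changes of -0.998 and -0.84. Against the 2 hyperoxia libraries with no agent in place of vehicle (a comparison added after the data were seen), GAS5 differed by -0.57 ± 0.22 (adjusted p = 0.2336). SNHG29 was at -0.34 ± 0.12 (adjusted p = 0.1586) and SNHG6, host of SNORD87, at -0.66 ± 0.21 (adjusted p = 0.1221), neither past the threshold. MCMDC2, which overlaps SNHG6 on the opposite strand, was at -0.65 ± 0.22 (edgeR, adjusted p = 0.1594). The counts of SNHG6 and MCMDC2 may not be separate measurements. Of the 24 genes 17 had a negative and 7 a positive log2 fold change against vehicle, with a median of -0.39 against 0.0042 for all genes. Those signs rest on the 2 hyperoxia vehicle libraries. Against the no-agent libraries SNHG25 was at 1.16 ± 0.40 and SNHG5 at 0.98 ± 0.29, while SNHG6 was at -0.72 ± 0.25 and SNHG29 at -0.36 ± 0.11. None of these passed (edgeR, adjusted p = 0.2022, 0.1548, 0.2068 and 0.1659), and no common direction is read from the signs.

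The interaction, which asks whether the oxygen effect differed between ATRA and vehicle, gave no call among the host genes by edgeR or DESeq2, and 1 higher and 2 lower at unadjusted p under 0.05, where 0.14% of all genes were called, 0.1% higher and 0.0401% lower. For GAS5 it was -1.01 ± 0.30 (adjusted p = 0.3406). The smaller rise of GAS5 under ATRA was therefore not shown to differ from that under vehicle. The oxygen effects of vehicle and of no agent, compared in the same way after the data were seen, differed for GAS5 by 0.52 ± 0.35 (adjusted p = 0.8693).

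**Figure D5:**
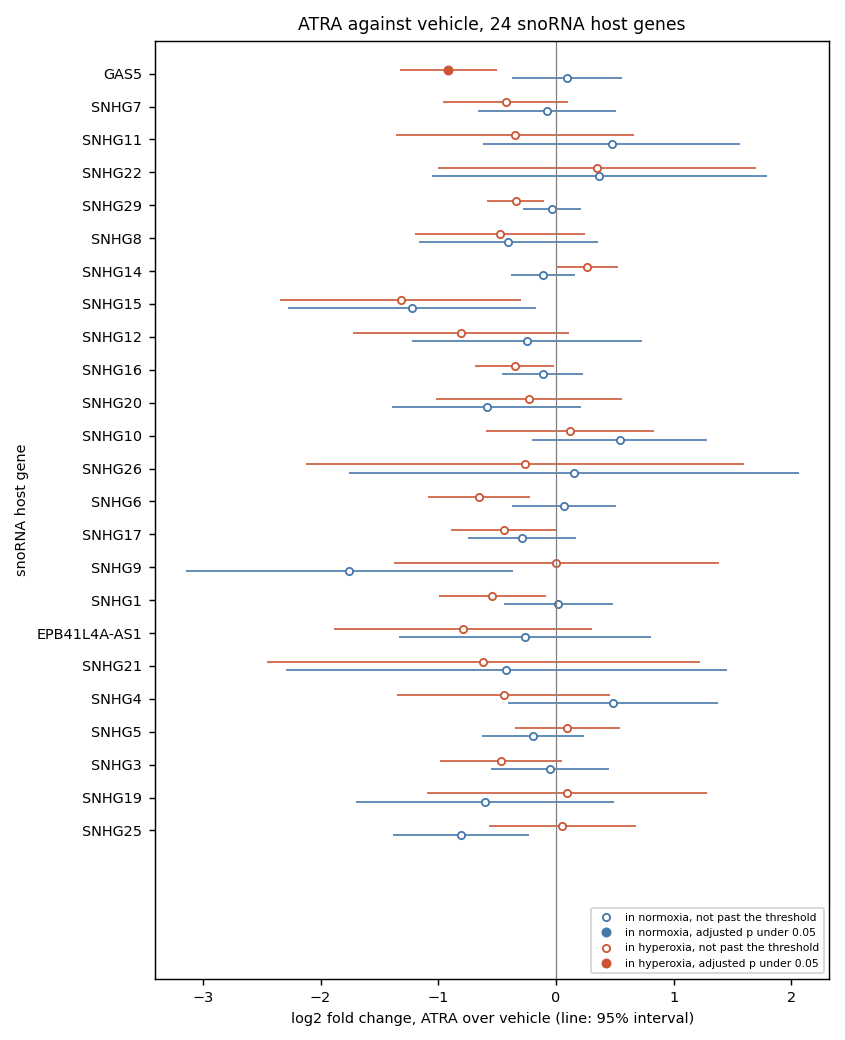
Log2 fold change of ATRA over vehicle for the 24 host genes in normoxia (blue) and hyperoxia (red), with 95% intervals and filled points at adjusted p under 0.05. GAS5 in hyperoxia, at -0.91, is the single filled point, and in normoxia it is at 0.097.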

How the data were processed

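RNA-seq libraries of A549 cells were aligned by the authors with HISAT2 to hg38 after Trimmomatic 0.38 and counted per gene with HTSeq. The deposited values are raw counts per gene symbol, 1 file per library, with 5 summary rows of reads not assigned to genes, which held 75.2% to 78.4% of the file totals and were left out. Depth on genes sets the precision, and a floor of 3 counts equals 0.535 to 1.14 CPM. Members, gene lists and tests were chosen with earlier results of these data known.

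Counts were fitted with edgeR 4.0.16 in R 4.3.3 (TMM, filterByExpr with a minimum count of 10 and total of 15, quasi-likelihood tests, Benjamini-Hochberg adjustment over all genes tested). A fit of 10 libraries in 4 groups gave the vehicle, ATRA and interaction comparisons, and a fit of 14 libraries in 6 groups gave the no-agent and mean oxygen contrasts, 7 comparisons in all. Fold changes carry standard errors and intervals are 95%. CPM values are scaled by TMM over 14 libraries. Fits were tested on simulated data. DESeq2 1.42.0 was an alternative, as were other scalings, no filter, left-out libraries and other groupings. Each library is printed for every member called in any comparison and for the 6 of highest mean CPM. From the context lists at most 4 genes were named, those of smallest p in each direction. Levels per kb use GENCODE 44 canonical lengths. Positions and 23 promoter windows are from RefSeq GRCh38.p14, and all 27 members matched by symbol. SNHG6, SNHG9, SNHG15 and SNHG25 had no promoter entry in the table used here. The library whose labels conflict was kept out of all fits.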

Additional observations from a re-analysis of the deposited data

Results flagged for a closer look

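The library without a group, whose title and treatment label disagree, held GAS5 at 144.1 CPM, above the highest normoxia vehicle library at 44.2 CPM on the same 15-library scale and within the hyperoxia range of 57.8 to 158.4 CPM. It was picked out because it lies outside every comparison and exceeds the control libraries. It was not assigned to a group from this value.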

How the results depend on the processing

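Of 24 called gene results, none reversed in 292 checks of such a result with a library left out or in 154 under other alternatives, and in 36 and 19 of these the result no longer passed the threshold. GAS5 and SNHG25 in the vehicle comparison, GAS5 and SNHG14 in the ATRA one, and GAS5, SNHG14, SNHG25, SNHG29, SNHG5 and SNHG7 in the mean contrast kept their calls throughout, as did SNHG29 with vehicle. Counts of host genes called moved as follows. In the vehicle comparison 5 were higher, against 3, when only the groups compared were fitted and also when vehicle and no-agent libraries formed 1 control group, 1 was lower, against 2, in the fit of all 14 libraries, and leaving out a library gave 1 to 2. In the ATRA comparison of oxygen 2 were lower, against 1, with DESeq2, with RLE size factors, without the filter and with the library set (read from library numbers alone) as a block, and 0 in the fit of all 14 libraries, and leaving out a library gave 1 to 3 lower and 2 to 4 higher. With no agent, 0 were higher and 0 lower when only those 4 libraries were fitted, where 58 genes in all were called against 2324, and leaving out a library gave 1 to 7 lower, the 7 arising without replicate 2 of hyperoxia, when the library with many genes at 0 stood alone and 7364 genes were called. In the mean contrast leaving out a library gave 2 to 5 lower. For ATRA in hyperoxia 2 were lower, against 1, with DESeq2, and 0 in the fit of all 14 libraries, with a pooled control group or, as an alternative chosen after seeing the data, with no-agent controls, and leaving out a library gave 0 to 1. In the interaction 1 was lower, against 0, without the filter. Over all genes the calls ran from 1386 to 4665 with vehicle (2616), 1975 to 3508 with ATRA (3391), 3692 to 8128 in the mean (4764), 56 to 300 for ATRA in normoxia (187), 66 to 522 in hyperoxia (331) and 4 to 96 for the interaction (21). Where a value changed, the cause was not tested. No paired analysis was possible because the labels give no replicate numbers shared between groups, and the library-set block above, read from library numbers alone, is not a pairing that the labels state. Read that way, the vehicle libraries lay in sets 2 and 3 alone, whereas the ATRA libraries lay in sets 1, 2 and 3. Depth limits most hosts under 10 CPM, whose intervals span changes in either direction.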

Other observations

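In the library whose labels conflict, SNHG29 was at 670.2 CPM, SNHG14 at 180.0, SNHG7 at 80.6, SNHG5 at 50.01, SNHG3 at 27.1 and SNHG25 at 22.5 CPM on the 15-library scale. These are values of a single library and were compared with no group.

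Among hosts below the abundance of those described above, SNHG15, host of SNORA9, was at 1.87 to 12.2 CPM in normoxia and 2.68 to 17.4 CPM in hyperoxia. Its ATRA libraries were lower than vehicle at both oxygen levels by log2 fold changes of -1.22 ± 0.51 in normoxia and -1.32 ± 0.49 in hyperoxia (edgeR, adjusted p = 0.4431 and 0.205), so neither passed. SNHG8, host of SNORA24, was at 9.99 to 21.2 CPM in normoxia and 11 to 40.2 CPM in hyperoxia, with the highest value in the library that had many genes at 0.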
